A study of Mus musculus with 40 samples.

Results

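Follicular B cells of mice lacking Tet3 were compared with those of wild-type (WT) mice by the methylation level of 100 bp tiles of the genome. Levels come from RRBS (reduced representation bisulfite sequencing), in which bisulfite conversion shows which cytosines are methylated in restriction fragments rich in CpG. The tiles described are the 363994 tiles on autosomes that every one of the 6 compared libraries covers, of 971845 tiles in the table and 932955 on autosomes. The WT group held library 13 (male, 8 weeks old), library 14 (male, 6 weeks) and library 15 (female, 6 weeks). The Tet3 knockout (Tet3KO) group held libraries 19 and 21 (male) and 20 (female), all 7 weeks old. All mice were C57/bl, and the labels give an inducible deletion under the Mb1 promoter, a promoter of early and later B-lineage cells, so that other cells of the mouse are not described as lacking Tet3. Each sex was present in both groups, but no WT library had the age of the Tet3KO libraries, so age and genotype cannot be told apart. The other groups used for context, 3 libraries each, were follicular cells lacking Tet2 (Tet2KO; all female, 6 or 8 weeks) or both enzymes (DKO; 2 male and 1 female, 6 or 7 weeks), and pro-B cells of the 4 genotypes. The pro-B libraries had the same ages and sexes as the follicular ones of their genotype, so that age and genotype cannot be told apart between pro-B Tet3KO and WT either. Nothing in the labels ties each library to its own mouse, and the tests therefore cover no more than the spread among these libraries, which may be technical.

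TET enzymes are dioxygenases that oxidise 5-methylcytosine to 5-hydroxymethylcytosine and further products, which are then diluted at replication or removed by base excision repair. Tet2 and Tet3 are family members known to act in the B lineage. During the passage from pro-B cells, an early stage in bone marrow, to follicular B cells, the main resting population of the spleen, enhancers of B-cell genes are known to lose methylation.

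The table gives levels with no read counts, so the depth behind a value is unknown, and extreme levels may come from a handful of reads. The 6 libraries had values for 411441 to 608149 tiles of the table, the fewest in Tet3KO library 21. That library also had the most member tiles at exactly 100%, 25.1% against 11 to 15.1% in the other 5. On the X chromosome 28.5% and 29.2% of tiles lay between 20 and 80% in the female libraries 15 and 20, against 9.96 to 12.6% in the male ones. Expression and gene annotation of the build were not used here, so neither the loss of Tet3 nor the identity of the follicular cells was checked, and regions are given by mm9 coordinates without genes or sequence.

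Methylation in Tet3KO follicular cells lay slightly above WT over the genome as a whole. The mean over all member tiles was 61.4, 61.1 and 61.3% in WT libraries 13, 14 and 15 and 61.8, 62.4 and 62.4% in Tet3KO libraries 19, 20 and 21. The groups did not overlap, with library 19 nearest to WT, and the difference was 0.941 points (SE 0.220, n = 3 each). The two-sided exact permutation p was 0.1, the smallest that 3 against 3 libraries can give. Most tiles were near 0 or near 100% and could move little, so the tiles were next divided by their level in pro-B WT cells, from libraries outside the comparison.

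The difference was largest at tiles of intermediate level. At the 39428 tiles with a pro-B WT level of 20 to 80%, the WT libraries stood at 68.1, 67.1 and 67.5% and the Tet3KO libraries at 69.3, 71.5 and 71.4%. The groups again did not overlap, and the difference was 3.14 points (SE 0.775, n = 3 each, two-sided exact permutation p = 0.1). It was 0.761 points (SE 0.174) at the 113533 tiles below 20% and 0.468 points (SE 0.147) at the 126137 tiles above 80%. In steps of 10%, it was highest at 30 to 40%, where WT stood at 46.5% ± 0.629 and Tet3KO at 51.5% ± 2.14 (SD, n = 3 each). Library 19 lay between the WT libraries and the other Tet3KO libraries in every step, as the plot of library levels by pro-B level shows.

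**Figure D1:**
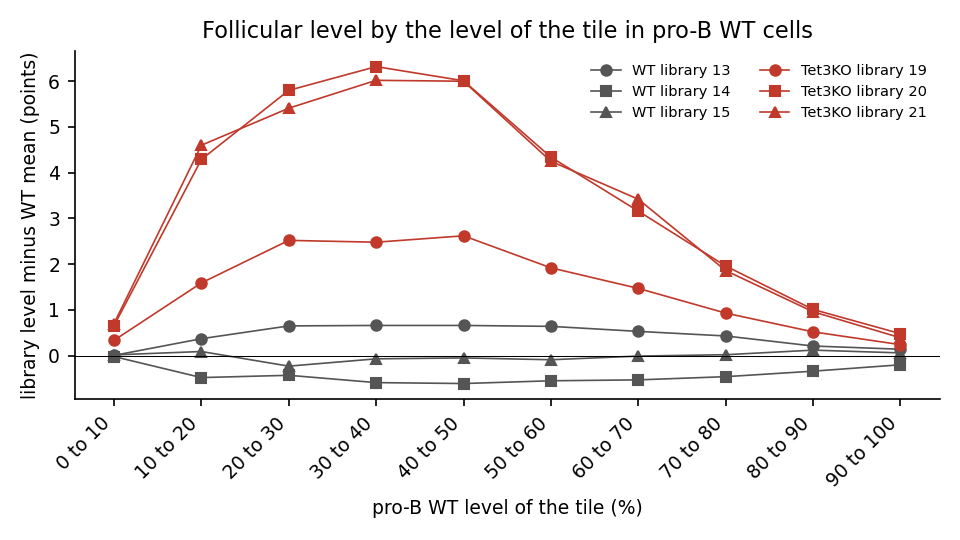
Level of each follicular library minus the WT mean (y axis, percentage points) at tiles grouped by their mean level in pro-B WT cells (x axis, %); each point is the mean of 1 library over the tiles of a step. All 3 Tet3KO libraries lie above the 3 WT libraries in every step, with differences of group means of 0.562 points at 0 to 10%, 4.94 points at 30 to 40% and 0.370 points at 90 to 100%.

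Large differences ran mostly upwards. The Tet3KO mean was at least 20 points higher at 4237 tiles (1.16% of those tested) and at least 20 points lower at 822 (0.226%). At 40 points or more the numbers were 282 higher (0.0775%) and 9 lower (0.00247%). Differences of 60 to 80 points were found at 14 tiles, all of them higher in Tet3KO. In 22222 tiles (6.11%) all 3 Tet3KO libraries lay above all 3 WT libraries, and in 9276 (2.55%) all lay below. With both conditions, 20 points and no overlap, 2929 tiles (0.805%) were higher and 403 (0.111%) lower. Library 21, with the fewest tiles, was the highest Tet3KO library at 2124 of the 4237 higher tiles. At the 822 lower tiles it stood at 41.6%, with libraries 19 and 20 at 53.7% and 56.0%. Without library 21 there were 4102 higher and 1109 lower tiles. The number of lower tiles rose to 1832 without library 19 and to 2109 without library 20.

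**Figure D2:**
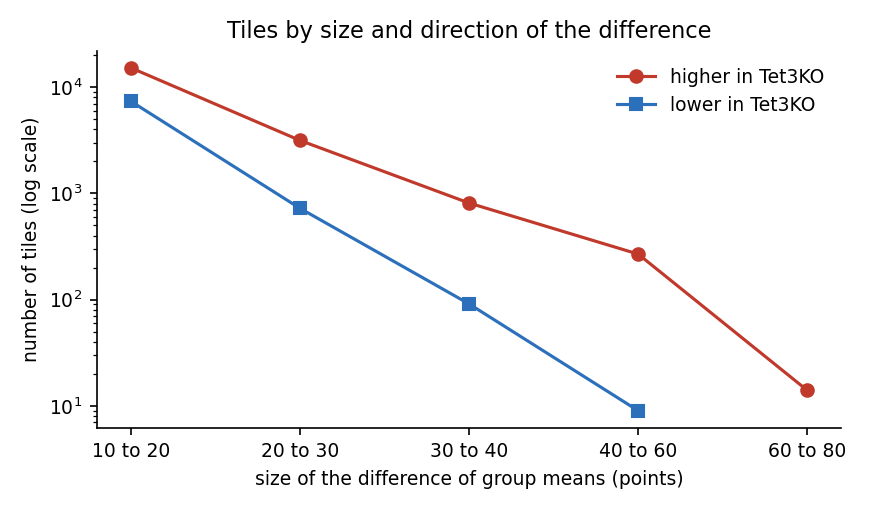
Number of tiles (y axis, log scale) by the size of the difference of group means between Tet3KO and WT follicular cells (x axis, percentage points), for tiles higher (red) and lower (blue) in Tet3KO. From 20 to 30 points there are 3145 higher and 722 lower tiles, from 30 to 40 points 810 and 91, and from 40 to 60 points 268 and 9.

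Tiles that stood lower in follicular than in pro-B cells of Tet2KO mice, in which Tet3 is still present, carried larger differences than most tiles. The change between the stages was taken in Tet2KO so that no compared library chose the tiles. At the 3410 tiles that fell by 20 points or more there, from 78.7% ± 0.698 to 51.3% ± 0.814 (SD, n = 3 each), follicular WT libraries stood at 56.5, 54.9 and 55.3%. Tet3KO libraries stood at 60.5, 62.6 and 62.7%. The difference was 6.39 points (SE 0.866), beside 0.820 points (SE 0.202) at the 317481 tiles that changed by less than 20 points and 2.92 points (SE 0.760) at the 10656 that rose by 20 or more. Of the 3410 tiles 517 (15.2%) were at least 20 points higher in Tet3KO and 65 (1.91%) at least 20 points lower. Over all tiles the shares were 1.16% and 0.226%, but most of these stood near full or no methylation and could move little. Among the 10656 tiles that rose by 20 points or more in Tet2KO, 5.09% were higher by as much and 1.09% lower. Among the 39428 tiles with a pro-B WT level of 20 to 80% the shares were 4.78% and 0.756%. The fall was that of the Tet2KO libraries that picked the 3410 tiles. These libraries had the ages of the WT libraries, 6 or 8 weeks, and the Tet3KO libraries were 7 weeks old. At the tiles picked, age and genotype thus cannot be told apart either. The same tiles stood at 56.2% ± 3.92 in pro-B WT cells, where fewer of them had a value, beside 55.5% ± 0.808 in follicular WT cells, and at 65.0% ± 7.07 and 67.0% ± 1.52 in pro-B and follicular DKO cells. With the change between the stages taken in the DKO instead, the Tet3KO to WT difference was 3.395 points (SE 0.855) at the 3324 tiles that fell by 20 points or more, 3.31 points (SE 0.778) at the 12964 that rose by as much and 0.813 points (SE 0.197) at the rest, with falling and rising tiles nearly equal.

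The difference grew with the size of the fall in Tet2KO. Where the fall was 10 to 20 points (12934 tiles) it was 2.45 points (SE 0.510), and where it was 20 to 40 points (3129 tiles) it was 5.55 points (SE 0.893). At the 281 tiles that fell by 40 points or more, WT libraries stood at 34.4, 33.4 and 32.9% and Tet3KO libraries at 48.4, 48.8 and 50.6%. There the difference was 15.7 points (SE 0.803), and 108 of the 281 tiles (38.4%) were at least 20 points higher in Tet3KO.

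The same tiles were divided by what happened in mice lacking both enzymes. Tiles with a value in fewer than 2 DKO libraries of either stage were left out. Of the 3410 tiles 2245 did not fall by 20 points in the DKO, which stood at 61.7% ± 7.34 in pro-B and 66.8% ± 1.67 in follicular cells (SD, n = 3 each). The DKO libraries did not cover every member tile, so the means of the stages need not come from the same tiles. At the 2245 tiles WT stood at 53.1% ± 0.881 and Tet3KO at 60.2% ± 1.40, a difference of 7.04 points (SE 0.954). At the 339 tiles that also fell by 20 points in the DKO, the difference was 4.57 points (SE 1.11), from 53.1% ± 1.35 to 57.7% ± 1.38. These differences were not tested against each other.

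Single tiles were tested with limma, fitted over the 24 RRBS libraries in their 8 groups. A tile was called when its Benjamini-Hochberg adjusted p over all 363994 tiles was under 0.05 with a gap between group means of 20 points or more. Tet3KO rose above WT at 32 tiles (0.00879%) and fell below it at 0. At an unadjusted p under 0.05 there were 9740 tiles higher (2.68%) and 4475 lower (1.23%), together 3.91%, which is below the 5% that tiles with no difference would give. This share depended on the fit. With only the 6 compared libraries in it, 20454 of the 363994 tiles had such a p, above 5%, in place of 14215. The 32 tiles formed 31 regions, each of 1 tile but for a pair of neighbours on chromosome 6, and lay on 15 of the 19 autosomes. All 31 regions had the Tet3KO libraries above the WT libraries. The 20 with the largest difference are described here, and since the same libraries served to pick and to measure them, their differences are too large on average.

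The largest difference was at chromosome 9, 62664201 to 62664300. It stood at 5.56, 17.8 and 0% in WT libraries 13, 14 and 15 and at 75, 71.1 and 81.0% in Tet3KO libraries 19, 20 and 21, a difference of 67.9 points (SE 8.21, adjusted p = 0.0351). This tile was largely unmethylated in each WT library and largely methylated in each Tet3KO library. Chromosome 10, 80541301 to 80541400, stood at 39.7, 10.8 and 25.8% in WT and at 86.1, 90 and 90.9% in Tet3KO (63.6 points, SE 7.71, adjusted p = 0.00997). The WT libraries differed among themselves by more there than the Tet3KO libraries did.

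Chromosome 15, 58838001 to 58838100, had the smallest adjusted p of all called tiles. Its levels were 25.0, 22.3 and 17% in WT and 87.6, 81.8 and 74.6% in Tet3KO (59.9 points, SE 5.14, adjusted p = 0.00024). Both groups were tight beside the gap between them. Chromosome 9, 44379101 to 44379200, was nearly free of methylation in WT, at 2.74, 1.85 and 0.909%, and stood at 48.7, 55.3 and 64.1% in Tet3KO (54.2 points, SE 6.25, adjusted p = 0.0199). It had the lowest WT level of the 20 regions and a Tet3KO level near the middle of the scale.

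On chromosome 6, 87826301 to 87826400 went from 16.2, 29.6 and 20.4% to 82.6, 67.9 and 90%. Chromosome 7, 117383001 to 117383100, went from 21.7, 26.9 and 32.6% to 82.4, 84.5 and 81.6%, with the narrowest spread in Tet3KO of the 20 regions. Chromosome 17, 87356301 to 87356400, went from 41.0, 27.3 and 33.3% to 91.3, 74.5 and 100%. In these 3 regions the lowest Tet3KO library lay over 30 points above the highest WT library.

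Chromosome 8, 10830801 to 10830900, stood at 36.7, 39.4 and 31.8% in WT and at 81.5, 88.0 and 92.0% in Tet3KO. Chromosome 5, 144763301 to 144763400, stood at 16.3, 28.6 and 22.1% and at 65.8, 69.4 and 78.3%. Chromosome 15, 95793801 to 95793900, stood at 32.2, 18.7 and 22.6% and at 69.9, 76.7 and 73.3%. All 3 of these went from under 40% in every WT library to over 65% in every Tet3KO library.

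The only region of 2 called tiles was chromosome 6, 145275201 to 145275400, with levels of 43.7, 36.6 and 46.3% in WT and 84.3, 86.6 and 88.4% in Tet3KO. Its tiles had adjusted p-values of 0.0108 and 0.0351, so that the difference of 44.3 points rests on both.

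The other 9 named regions, in order of their difference, had WT and Tet3KO means as follows. Chromosome 5, 66179701 to 66179800, stood at 46.6% and 94.7%, and chromosome 10, 117418501 to 117418600, at 38.1% and 85.5%. Chromosome 11, 117762501 to 117762600, stood at 46.6% and 91.8%. Chromosome 12, 114532101 to 114532200, stood at 47.5% and 90.7%. In these 4 the WT libraries were at intermediate levels and the Tet3KO means at 85.5% or more, with the lowest single library at 76.2% (library 20, chromosome 10). Chromosome 8, 74844801 to 74844900, stood at 17.3% and 59.5%, and chromosome 18, 56864101 to 56864200, at 34.6% and 76.5%. Chromosome 4, 135651801 to 135651900, stood at 33.4% and 74.6%. Chromosome 19, 3430801 to 3430900, stood at 10.6% and 50.3%, and chromosome 12, 118796001 to 118796100, at 51.4% and 90%. Over the 20 regions the WT libraries ranged from 0 to 55.6% and the Tet3KO libraries from 45.5 to 100%, with a median difference of 48.5 points. The 11 called regions that were not named differed by 20.4 to 35.5 points.

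**Figure D3:**
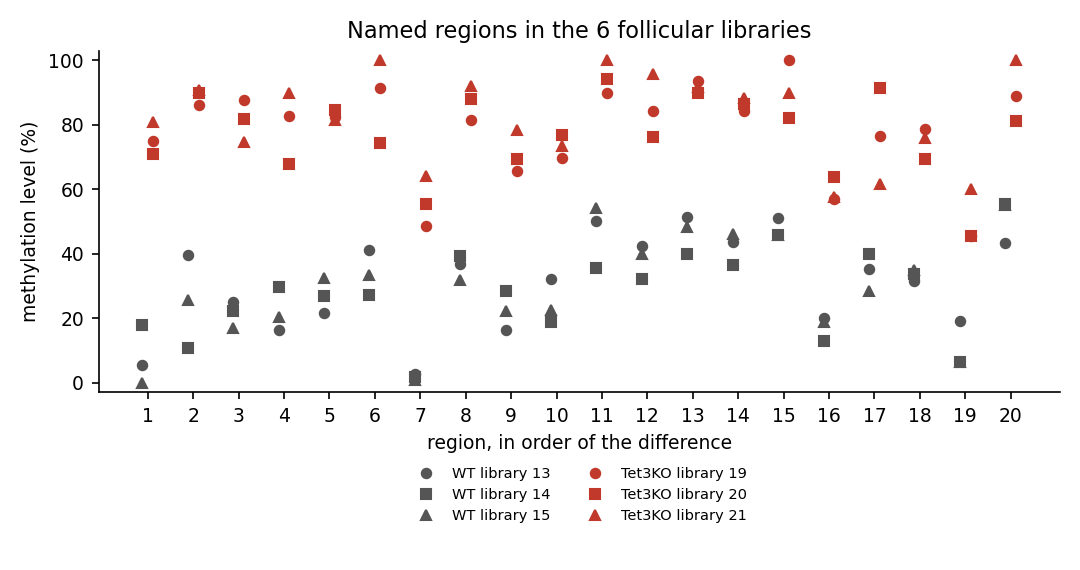
Methylation level (y axis, %) of the 20 named regions (x axis, in order of the difference, region 1 the largest) in the 3 WT (grey) and 3 Tet3KO (red) follicular libraries; each point is 1 library. In all 20 regions the 3 Tet3KO libraries lie above the 3 WT libraries, from a difference of 67.9 points at region 1 to 38.6 points at region 20.

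The calls depended on the libraries and the scale used. With only the 12 follicular libraries in the fit 13 tiles were called, 8 of them among the 32, and 4 of the 20 named regions kept their call (chromosome 10, 80541301; chromosome 15, 58838001; chromosome 7, 117383001; chromosome 8, 10830801). With only the 6 compared libraries 0 tiles were called, with 20454 at an unadjusted p under 0.05, and on logit values 19 were called, 3 of them among the 32. With each library centred 5 were called. With 1 library left out 36 to 62 tiles were called higher (62 without WT library 13) and 0 to 20 lower (20 without Tet3KO library 20, 12 without 19 and 11 without 21).

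Called tiles were a larger share of the tiles that fell between the stages in Tet2KO mice than of all tiles. Of the 32 tiles 16 were among the 3410 that fell by 20 points or more from pro-B to follicular Tet2KO cells (0.469% of these, against 0.00879% of all tiles), and 6 of these 16 among the 281 that fell by 40 or more. By pro-B WT level, 3 called tiles lay below 20% (0.00264% of that class), 7 between 20 and 80% (0.0178%) and 14 above 80% (0.0111%), and 8 lacked a pro-B WT level in at least 2 libraries.

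Most named regions were highly methylated in pro-B WT cells, with a mean of 80% or more at 12 of the 19 that had a value. Among the lower ones were chromosome 5, 144763301, at 50.7% and chromosome 8, 10830801, at 53.0%. Pro-B WT libraries had a value at 19 of the 20, with a median group mean of 90%, and at 18 of these the pro-B WT mean lay above the follicular WT mean. The regions were picked for a follicular WT level far below Tet3KO, which favours a pro-B WT mean above it. The share over all tiles is not given here. At 7 of the 19 the pro-B WT libraries with a value all stood at 100%. Of the 32 called tiles 9 (28.1%) had every pro-B value at exactly 100%, beside 8.53% of all member tiles. Groups at exactly 100% add no spread to the fit over 24 libraries, which favours a call at such tiles, and the part of this in the pro-B levels of the called tiles was not tested. Chromosome 15, 58838001, stood at 92.3% ± 13.4 and chromosome 6, 87826301, at 90.4% ± 16.7 in pro-B WT cells (SD, n = 3 each). Only at chromosome 19, 3430801, did the pro-B WT mean, 0.741% ± 1.28, lie below the follicular WT mean, 10.6%.

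The other follicular knockouts stood in an order at these regions. The median of the group means over the 20 regions was lowest in WT (30.3%), then 53.4% in Tet2KO, 82.1% in Tet3KO and 95.4% in the DKO. The Tet2KO mean lay between WT and Tet3KO at 19 regions and above Tet3KO at chromosome 12, 118796001 (92.8% ± 6.46). The DKO mean lay above Tet3KO at all 20 regions. These groups are set against the same Tet3KO and WT libraries that picked the regions, which favours a Tet3KO level above both WT and Tet2KO.

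**Figure D4:**
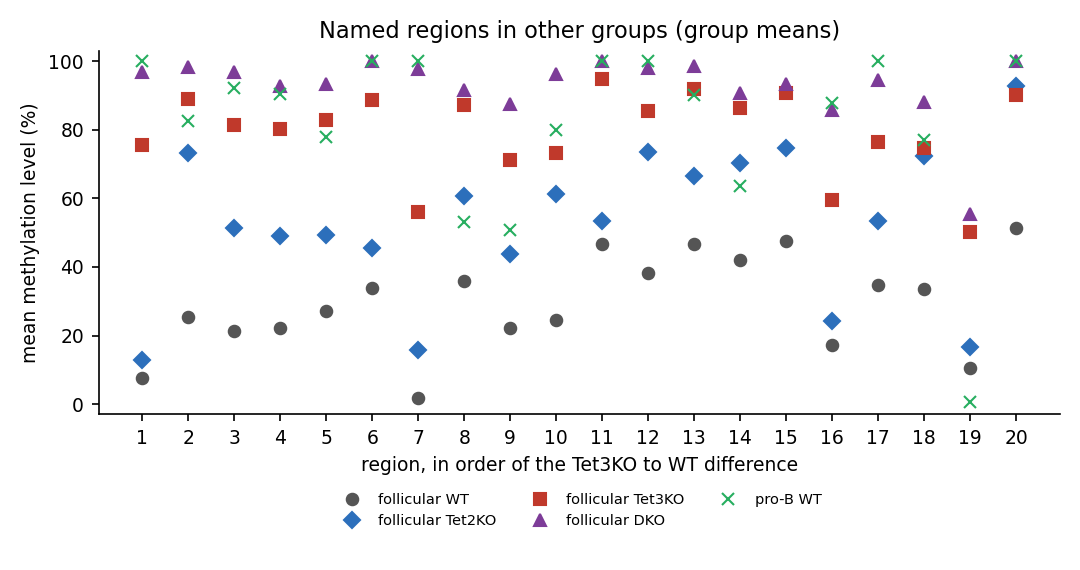
Mean methylation level (y axis, %) of the 20 named regions (x axis, in order of the Tet3KO to WT difference) in follicular WT, Tet2KO, Tet3KO and DKO cells and in pro-B WT cells; points are group means of up to 3 libraries, and region 15 has no pro-B WT value. DKO means lie above Tet3KO means in all 20 regions and Tet2KO means between WT and Tet3KO in 19.

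The knockouts also differed in how close Tet2KO stood to WT. At chromosome 9, 62664201, Tet2KO stood at 12.8% ± 13.7 (n = 3) beside 7.78% ± 9.10 in WT, 75.7% ± 4.98 in Tet3KO and 96.7% ± 4.71 (n = 2) in DKO. At chromosome 8, 74844801, it stood at 24.3% ± 4.15, with 17.3% ± 3.85 in WT, 59.5% ± 3.68 in Tet3KO and 85.7% ± 5.38 in DKO. In both regions the Tet2KO mean was near WT and the Tet3KO mean well above. Neither was called in the limma comparison of Tet3KO with Tet2KO (62.9 points, adjusted p = 0.0550, and 35.2 points, adjusted p = 0.105). At chromosome 4, 135651801, Tet2KO stood at 72.3% ± 8.17 beside 74.6% ± 4.71 in Tet3KO, a difference of 2.25 points (adjusted p = 1).

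Tet3KO and Tet2KO were compared directly in the same fit. Over 363820 tiles Tet3KO was higher at 8 (0.0022%) and lower at 2 (0.00055%). Of the 32 called tiles 28 had a higher mean in Tet3KO than in Tet2KO, beside 49.5% of all tiles, and 2 of these passed the test. One was chromosome 3, 129673501 to 129673600 (29.4 points, adjusted p = 0.0186), and the other chromosome 5, 101151201 to 101151300 (30.5 points, adjusted p = 0.0393). Both fall outside the 20 named regions and are given here after their values were seen. The Tet3KO libraries that picked the 32 tiles also enter this comparison, which favours a Tet3KO mean above Tet2KO. Sex and age also differed between Tet3KO and Tet2KO libraries. Against the DKO, over 363238 tiles, Tet3KO was higher at 32 (0.00881%) and lower at 143 (0.0394%). Chromosome 9, 44379101, was among the lower ones, with 56.0% in Tet3KO and 97.8% in DKO (-41.8 points, adjusted p = 0.0324).

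The tile on chromosome 3 was the only one of the 32 that was also called higher in Tet3KO than in the DKO. It stood at 0, 10 and 3.23% in WT libraries 13, 14 and 15 and at 41.2, 30.4 and 23.1% in Tet3KO libraries 19, 20 and 21 (27.2 points, SE 3.76, adjusted p = 0.0328). Follicular Tet2KO stood at 2.15% ± 3.73 (n = 3) and DKO at 4.17% ± 5.89 (n = 2), and the pro-B WT libraries and pro-B Tet3KO libraries 7 and 9 all stood at 0. Tet3KO was higher than the DKO by 27.4 points (adjusted p = 0.0217), in the same Tet3KO libraries that picked the tile. The 3 Tet3KO libraries lay above every other follicular library with a value. Uncalled tiles within 500 bp differed little, with a median of 0.359 points over 5 tiles.

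Loss of Tet3 in mice that already lack Tet2 can be looked at as DKO minus Tet2KO. The group means of this comparison share no library with those of Tet3KO minus WT. The Tet2KO libraries were all female and, like the WT libraries, 6 or 8 weeks old. The DKO libraries were of both sexes and 6 or 7 weeks old. The part of sex and age in this comparison was not tested. The calls of both comparisons came from the same fit, with the same spread per tile. That favours a call in DKO minus Tet2KO at tiles already called in Tet3KO, and its part in the shared calls was not tested. In this second comparison 254 of 363087 tiles (0.07%) were called higher and 29 (0.00799%) lower. Of the 32 tiles called in Tet3KO 11 were called higher, and 28 had a DKO mean above the Tet2KO mean, beside 50.9% of all tiles. Their median difference was 25 points, beside 0.0601 over all tiles. Among the named regions the largest were chromosome 9, 62664201 (83.9 points, adjusted p = 0.00502), chromosome 9, 44379101 (81.9 points, adjusted p = 0.000192), and chromosome 8, 74844801 (61.5 points, adjusted p = 0.000383). In each of these the Tet2KO level lay closer to WT than to Tet3KO.

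Higher tiles moved the same way in the second comparison more often than lower tiles did, as counts with no test. Of the tiles at least 20 points higher in Tet3KO than WT, 4207 had values in the second comparison, and 1326 of these (31.5%) were at least 20 points higher in DKO than Tet2KO and 89 (2.12%) at least 20 points lower. Of the tiles at least 20 points lower in Tet3KO, 807 had values, with 47 (5.82%) at least 20 points higher and 54 (6.69%) at least 20 points lower. Over all tiles these shares were 1.46% and 0.444%. Tiles 40 points or more higher in Tet3KO had a median DKO to Tet2KO difference of 32.5 points (279 tiles), and tiles 20 to 40 points lower had one of 0.272 points (798 tiles). Across all 363087 tiles the correlation of both differences was r = 0.214 (Pearson) and 0.0817 (Spearman). Across the 39361 tiles of intermediate pro-B WT level it was r = 0.272 (Pearson) and 0.190 (Spearman). Tiles are not independent replicates, and the libraries share restriction fragments and their CpG content.

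**Figure D5:**
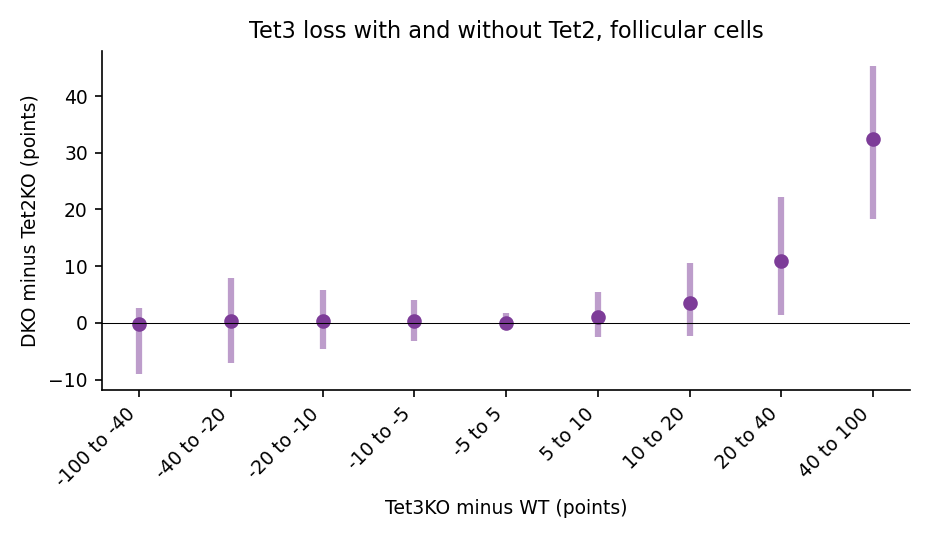
Difference between DKO and Tet2KO follicular cells (y axis, percentage points) for tiles grouped by the difference between Tet3KO and WT follicular cells (x axis, percentage points); points are medians over tiles and bars run from the 25th to the 75th percentile. The median is 32.5 points where Tet3KO is 40 or more points higher, 10.97 points at 20 to 40 points higher, and within 1 point of 0 in every group where Tet3KO is lower.

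The called tiles were also examined in pro-B cells, whose libraries did not set the difference that picked them. Library 8 of pro-B Tet3KO had values at only 5.5% of the member tiles and none of the 32, so libraries 7 and 9 were used. Of the 31 regions 25 had a pro-B Tet3KO value, and only 11 had it in both of these libraries. Values in both pro-B groups were present at 24 of the 32 tiles, with Tet3KO above WT at 13 (beside 37% of all tiles) and below at 2. At the other 9 the groups were equal, with every WT and Tet3KO value at 0 or at 100%. The median difference was 2.25 points, beside 0 over all tiles. At least 20 points higher were 4 of the 24 (16.7%, against 5.66% of all tiles). That share was not particular to tiles higher in follicular Tet3KO. It was 24.8% (140 of 565) where follicular Tet3KO was at least 20 points lower than WT, and 27.5% (891 of 3241) where it was at least 20 points higher. Among the 4, chromosome 7, 117383001, and chromosome 9, 119882601, had a value in a single pro-B Tet3KO library. The clearest of the 4 was chromosome 5, 144763301, at 50.7% ± 11.2 in pro-B WT (n = 3) and 89.5% and 93.3% in pro-B Tet3KO libraries 7 and 9. Chromosome 8, 10830801, stood at 53.0% ± 4.74 (n = 3) and at 72.7% and 91.4%. The pro-B differences of 40.7 points (adjusted p = 0.00109) and 29.0 points (adjusted p = 0.0615) compare with 48.9 and 51.2 points in follicular cells. Over all 283372 tiles with both groups, the pro-B comparison called 0.899% higher and 1.81% lower in Tet3KO. The follicular difference exceeded the pro-B one by the interaction term at 3624 of them (1.28%) and was below it at 1371 (0.484%), mostly where pro-B Tet3KO had a single library.

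Neighbouring tiles leaned the same way as the called ones. Within 500 bp of the 31 regions lay 47 member tiles that were not called, near 24 of the regions. Of these 41 (87.2%) had a higher mean in Tet3KO, beside 52.9% of all tiles, and 15 were at least 20 points higher. Their median difference was 12 points. Neighbouring tiles can share restriction fragments and reads with the called ones, so they are not separate evidence.

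The shift was spread over the genome. On each of the 19 autosomes the 3 Tet3KO libraries lay above the 3 WT libraries, both over all tiles and over tiles of intermediate pro-B WT level. Over the latter the difference ran from 2.27 points on chromosome 12 to 4.29 points on chromosome 19, where WT stood at 64.6% ± 0.506 and Tet3KO at 68.9% ± 1.62 (SD, n = 3 each). The density of tiles, counted as other tiles of the table within 1 kb, follows the CpG content, since RRBS covers CpG-rich sequence. In the densest class, with 10 to 20 such tiles, WT stood at 21.5% and Tet3KO at 22.1%, a difference of 0.609 points (SE 0.151). At 3 to 5 tiles within 1 kb it was 1.15 points (SE 0.262), on a WT level of 76.2%. Among tiles of intermediate pro-B WT level the differences were 2.61 points at 0 to 2 tiles, 3.39 at 3 to 5, 3.59 at 6 to 9 and 3.06 at 10 to 20. Of the 32 called tiles 16 lay in the sparsest class (0.016% of its tiles) and 3 in the densest (0.00363%).

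By the adjusted p alone, with no limit on size, 75 tiles were higher (0.0206%) and 20 lower (0.00549%). No tile was called lower by the full rule, and the lower tiles of smallest p without overlap between the groups differed by less than 20 points. Chromosome 8, 90885101 to 90885200, stood at 3.03, 3.23 and 3.57% in WT and was listed at 0 in the 3 Tet3KO libraries. Chromosome 10, 100173101 to 100173200, stood at 97.1, 100 and 100% in WT and at 85.7, 84.6 and 83.3% in Tet3KO. Chromosome 5, 50463301 to 50463400, stood at 97.6, 100 and 100% and at 84.6, 85.2 and 84.6%. These 2 tiles differed by -14.5 and -14.4 points. Chromosome 15, 73701101 to 73701200, and chromosome 3, 103772501 to 103772600, differed by -5.46 and -1.45 points. All 5 lay within 20 points of full or no methylation in both groups.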

How the data were processed

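The authors deposited methylation levels as a fraction (0 to 1), 1 value per 100 bp tile and library, per the file headers, without read counts. Trim Galore and methylKit are named without versions, together with the build mm9, per the submitters' processing notes. The aligner, coverage minimum and conversion rate are not given in the sources used here. Tiles of chromosome 1 reach 197193600, so coordinates were taken as mm9. The 16 RNA samples were not analysed here.

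Fractions were multiplied by 100. Limma 3.58.1 (R 4.3.3, data.table version 1.17.8) was fitted per tile with 8 groups over 24 libraries (4 to 16 residual degrees of freedom, median 13) and a trended prior spread. X and Y were left out. The procedure was tested on simulated data. Called tiles within 500 bp were joined, and up to 20 higher and 10 lower regions without overlap were named by size. Where under 5 tiles were called, the 5 of smallest p without overlap were given as values. The comparison, the classes and the tests were chosen with earlier results of these data known; finer classes and the DKO-to-Tet2KO comparison were added after the tables were seen. Alternatives were logit values, other library and tile sets, sex as a term, centring, an untrended prior, other thresholds, and each compared library left out. Precision per value is unknown without depth.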

Additional observations from a re-analysis of the deposited data

Results flagged for a closer look

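At 6 named regions the Tet3KO to WT difference was called as larger in follicular than in pro-B cells by the interaction term of the limma fit. The follicular difference exceeded the pro-B one by 67.9 points at chromosome 9, 62664201 to 62664300, by 56.7 at chromosome 15, 58838001 to 58838100, and by 54.2 at chromosome 9, 44379101 to 44379200. It exceeded it by 47.4 points at chromosome 10, 117418501 to 117418600, by 41.9 at chromosome 18, 56864101 to 56864200, and by 38.6 at chromosome 12, 118796001 to 118796100. The adjusted p-values ran from 0.000248 to 0.0485. At all but the region of chromosome 15 pro-B Tet3KO had a single library with a value, and that value and the pro-B WT values stood at 100%. With the pro-B groups at that ceiling, Tet3KO could not lie above WT there, and at these 5 regions the interaction repeats the follicular difference. Over all 283372 tiles tested the interaction was called at 4995, of which 4105 (82.2%) had a single pro-B Tet3KO value, against 29.5% of the tiles tested, and 83 a follicular difference of at least 20 points. The part of few pro-B values in these calls was not tested.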

How the results depend on the processing

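The differences in mean level kept their direction under every alternative tried. Over all member tiles they were 0.837 to 1.13 points with 1 library left out, and over intermediate tiles 2.77 to 3.85 points. With the median over tiles in place of the mean the groups overlapped (0.739 points, p = 0.3, exact permutation test). The 32 higher tiles became 19 on logit values, 13 with the 12 follicular libraries, 0 with the 6 compared libraries, 20 with sex as a term, 5 with each library centred and 10 among the 128596 tiles covered by 23 libraries (the last from fewer tiles tested). With 1 library left out they were 36 to 62, the 62 without WT library 13, 29 of them among the 32. The 0 lower tiles became 2 on logit values, 6 at 10 points and 1 with X and Y kept, and 0 to 20 with 1 library left out (20 without Tet3KO library 20, 12 without 19, 11 without 21, 4 without WT library 13, 2 without 15). In alternatives chosen after seeing the data, 815 of the tiles covered by 23 libraries were at least 20 points higher and 81 lower (91.0% higher, in place of 83.8%). The lower count ran from 1075 to 2109 with 1 library left out. No named region reversed. Of the 20, 17 lost their call on logit values, 17 with centring, 16 with the follicular libraries, 20 with the 6 libraries, 7 with sex as a term and 2 to 5 with 1 library left out. Except where fewer samples or tiles were used, the cause was not tested. No paired analysis was possible because the compared groups share no replicate numbers. Without depth, levels from few reads could not be set apart.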
